A study of Mus musculus with 7 samples.

Results

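Mpo encodes myeloperoxidase, the enzyme that makes hypochlorous acid inside the primary (azurophil) granules of neutrophils. It was examined with 7 other genes, namely Elane (neutrophil elastase), Prtn3 (proteinase 3), Ctsg (cathepsin G), Ms4a3 (a membrane protein of granulocyte-monocyte progenitors), Lyz2 (lysozyme), Igfbp4 (a binding protein of insulin-like growth factors) and Srgn (serglycin, the proteoglycan core on which granule proteases are packed). The 8 genes were chosen by name from the 21938 protein-coding genes of the nuclear chromosomes in GENCODE M21, with earlier results of these data known. Igfbp4 is not itself a gene for a granule protein. Mpo was chosen because a variant of GATA2 had many peaks there, so its values describe the choice and are not a test, and the question was whether the other 7 genes had the same pattern.

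CUT&Tag uses a transposase tethered to an antibody to cut and tag the DNA around a bound protein. The cells were hi-77-/- progenitors, which derive from the fetal liver of mice, were immortalized with Hoxb8, lack both copies of an enhancer upstream of Gata2 and are low in endogenous GATA2. All cells analysed carried that deletion and were infected for 3 days with a retrovirus that expressed GFP and either GATA2 or 9aa-Ins, each with an HA tag. 9aa-Ins is a GATA2 protein with extra amino acids in the spacer between its zinc fingers. GFP+ cells of each condition were pooled and then split into 2 replicates. The antibody was to the HA tag, which the introduced proteins carry and endogenous GATA2 lacks. The deposited peak lists merge both replicates of a construct, so there is 1 list for GATA2 and 1 for 9aa-Ins, no value has a replicate error, and no difference between the lists could be tested. Libraries made with anti-GATA2 antibody, of which there are 3, were left out. None of the 7 libraries of the series is from cells with empty vector, so reads that arise without a tagged protein were not measured. Peak lists carry no RNA levels, so the labelled cell type could not be checked against the expression of its markers.

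In textbook accounts, primary granule proteins are made early in neutrophil differentiation, at the promyelocyte stage, and their genes are activated by C/EBP, RUNX, ETS (PU.1) and MYB proteins. GATA2 acts earlier, in stem and progenitor cells, and binds a short DNA motif, WGATAR, through its C-terminal zinc finger. The genes are scattered over the genome. Elane and Prtn3 are neighbours on chromosome 10, where Lyz2 and Srgn also lie, Mpo and Igfbp4 lie on chromosome 11, Ctsg on chromosome 14 and Ms4a3 on chromosome 19. All coordinates are on mm10 (GRCm38).

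There were 6254 peaks with GATA2 and 1079 with 9aa-Ins. Depth is given here by the pileup, that is how many reads cover the summit, and by the background of the peak caller (0.464 reads in the list for GATA2, 0.455 in that for 9aa-Ins). The lowest pileup in either list was 9 reads, so a site absent from a list had too few reads to be called and is not shown to be empty. Intervals given with pileups are exact 95% Poisson intervals and cover counting error only, since reads after PCR carry no molecular identifiers. Peaks of the lists that had 1 bp or more in common were called shared, and a peak belonged to a gene when its summit lay in the gene or within 20 kb of its ends.

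9aa-Ins peaks covered most of Mpo, whereas no GATA2 peak touched the gene. Of the body of Mpo (ENSMUSG00000009350.13, chr11:87793581-87804413, plus strand, 10833 bp), 6575 bp (60.7%) lay under 7 9aa-Ins peaks and 0 bp under GATA2 peaks. With a peak upstream, 8 9aa-Ins summits fell within 20 kb of Mpo, and 7 of these peaks were absent from the GATA2 list. The only GATA2 peak within 20 kb lay beyond the 3′ end.

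**Figure D1:**
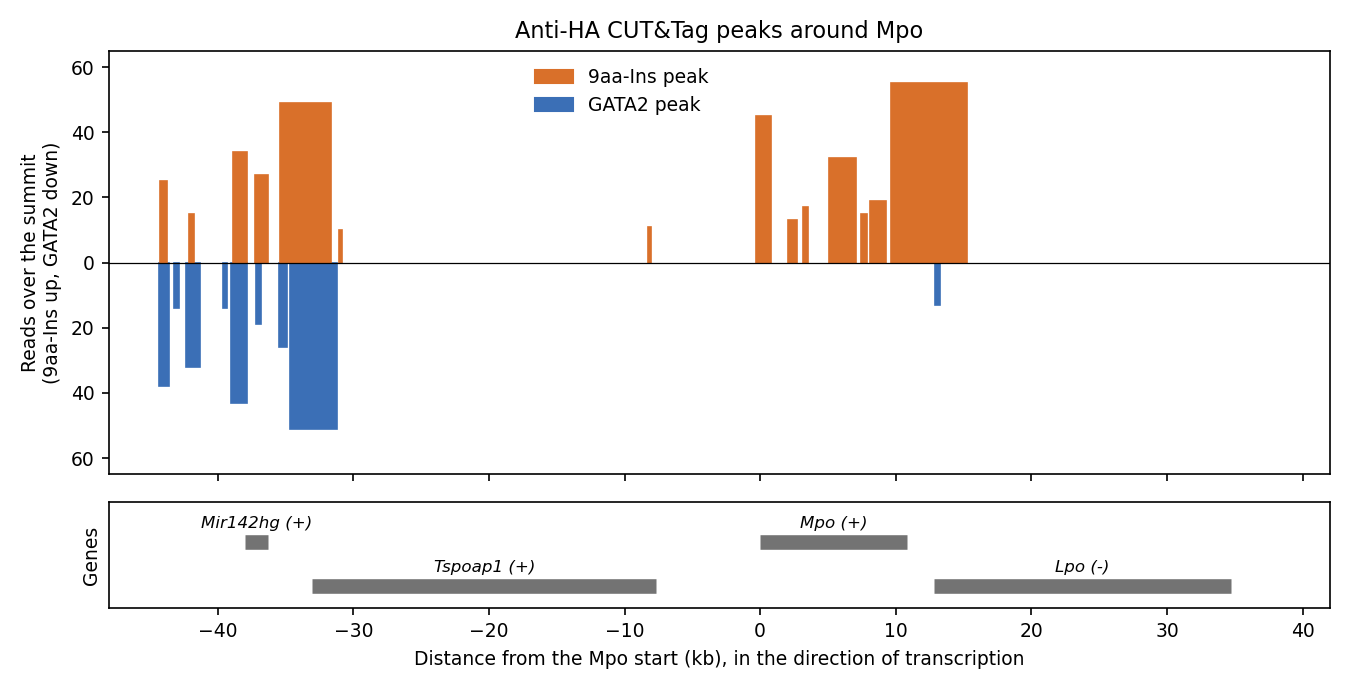
Peaks by distance from the start of Mpo (kb, x axis). Each box spans 1 peak, and its height is the pileup at the summit (reads, y axis), drawn upward for 9aa-Ins and downward for GATA2, with genes and their strands beneath. Over Mpo the 9aa-Ins boxes reach 55 reads with 1 GATA2 box of 13 reads beside them, whereas the cluster at Mir142hg and the start of Tspoap1 is present in both directions.

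The stretch before the annotated start of Mpo is shown because the tallest peak within the gene covers it whole. Capitals mark a match to WGATAR, a match to the ETS core (GGAAGT) and a match to the RUNX core (TGTGGT), the last on the opposite strand. A match is a description of the letters only.

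Mpo, chr11:87793431-87793580, plus strand: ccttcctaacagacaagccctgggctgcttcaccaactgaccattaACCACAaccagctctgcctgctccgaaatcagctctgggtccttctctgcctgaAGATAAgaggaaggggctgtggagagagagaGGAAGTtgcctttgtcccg

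The peak over the promoter and first exon of Mpo ran from 87793294 to 87794383 (1090 bp), with 45 reads at a summit 255 bp inside the gene (interval 32.8 to 60.2). By pileup it ranked 37 among the 1079 9aa-Ins peaks. It covered all 300 bases of the RefSeq promoter window around its start (GRCm38), and the nearest GATA2 peak was 12.1 kb away.

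From there the 9aa-Ins peaks continued through the gene. A peak of 623 bp had 13 reads at 2.36 kb from the start, in an exon of a non-coding transcript that overlaps Mpo (Gm11505), and a peak of 368 bp had 17 reads in an intron at 3.26 kb. A broad peak of 2036 bp (87798634 to 87800669) had 32 reads (interval 21.9 to 45.2), with its summit in an intron at 6.69 kb. Further along, peaks of 422 bp and 1174 bp had 15 and 19 reads, with both summits in coding exons. All of these inner peaks were lower than the peaks at either end of the gene.

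The last peak extended from 87803265 to 87808812, over the 3′ end of Mpo and into Lpo, which encodes lactoperoxidase on the other strand. At 5548 bp it was the widest of the 1079 peaks in the 9aa-Ins list, whose median width was 299 bp. It had 55 reads (interval 41.4 to 71.6) at a summit between the genes, 851 bp beyond the end of Mpo. The GATA2 peak of this region lay within it, at 87806490 to 87806851 in an untranslated stretch of Lpo, with 13 reads (interval 6.92 to 22.2). The GATA2 peak was 362 bp wide, its summit was 1375 bp from the 9aa-Ins summit, and its overlap is the reason the wide peak counts as shared.

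The 7 peaks on the body spanned 15519 bp from first to last base, of which 11261 bp were covered, and this was 2.45% of all bases under 9aa-Ins peaks. They did not follow the exons. Of the bases in exons of protein-coding Mpo transcripts 69.5% were covered, and of the intronic bases 57.1%, with 11 of 15 exons and 12 of 14 introns touched. The gaps between successive peaks were 257 to 1546 bp. When peaks under 1 kb apart were joined, the last 4 formed a domain of 10.2 kb, 90.2% of it covered, which was the widest of 1018 9aa-Ins domains. The next widest, of 8.02 kb, lay at Mir142hg and the start of Tspoap1 on the same chromosome, and the 6 after it held histone genes on chromosome 13.

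**Figure D2:**
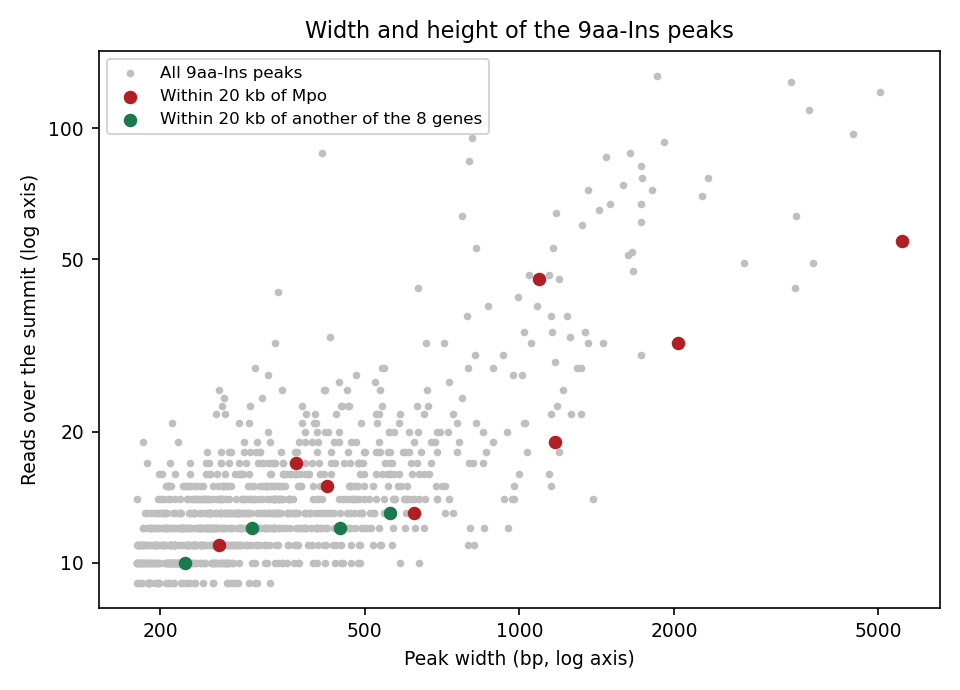
Width (bp, log x axis) and pileup at the summit (reads, log y axis) of each 9aa-Ins peak, with those near Mpo in red and those near the other genes in green. Peaks near Mpo reach 5548 bp and 55 reads, and the 4 near other genes stay between 10 and 13 reads.

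Near Mpo, the genes Mir142hg, Tspoap1 and Lpo had peaks in both lists. So did Tex14 (chr11:87405065-87555823), which lies farther off, outside the 20 and 50 kb windows of Mpo. At Mir142hg, the host gene of a hematopoietic microRNA, and the start of Tspoap1, both lists held a cluster of tall peaks. The largest were a GATA2 peak of 3475 bp with 51 reads and a 9aa-Ins peak of 3731 bp with 49 reads. Of Mir142hg, 63.8% lay under 9aa-Ins peaks and 29.4% under GATA2 peaks. Tspoap1 was covered almost equally, by 1872 bp of 9aa-Ins peaks and 1812 bp of GATA2 peaks, and 2 of the 3 9aa-Ins peaks on its body were absent from the GATA2 list. Lpo had 2385 bp under the 9aa-Ins peak that it shares with Mpo and 362 bp under the GATA2 peak. Tex14, a testis gene on the far side of that cluster, had 13 GATA2 peaks of 9 to 72 reads and 9 9aa-Ins peaks of 22 to 95 reads, and all 9 overlapped GATA2 peaks. Epx, which encodes eosinophil peroxidase and lies beyond Lpo, had no peak within 20 kb in either list. The 8 9aa-Ins peaks near Mpo also include 1 over the last part of Tspoap1, 8.24 kb before the start of Mpo (260 bp, 11 reads, 9aa-Ins only).

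Only 129 of the 1079 9aa-Ins peaks (12.0%) were found with 9aa-Ins alone, and 84.7% of the GATA2 peaks were found with GATA2 alone. Mpo accounted for 7 of the 129 (5.43%). These 129 peaks were mostly low, with a median of 11 reads and a median width of 237 bp, and the promoter peak of Mpo was the tallest. By the number of such peaks within 20 kb, Tspoap1 had 8, the most of any gene, and Mpo had 7, but the windows of these neighbours overlap.

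To ask whether the pattern held elsewhere, a gene was said to have it when 9aa-Ins peaks covered more of its body than GATA2 peaks and at least 1 peak found with 9aa-Ins only had its summit within 20 kb. Of all protein-coding genes 83 (0.378%) had it, including Tspoap1 and Lpo beside Mpo. Among the 8 genes it was found at Mpo, which the choice fixed, and at Ctsg, but not at the other 6. The resemblance at Ctsg was limited to 1 small peak at the gene start, so that no other gene of the 8 had the gene-wide coverage of Mpo. Coverage by GATA2 peaks exceeded that by 9aa-Ins peaks at Prtn3, Ms4a3 and Srgn. The bodies of Elane, Lyz2 and Igfbp4 were free of peaks from either list.

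**Figure D3:**
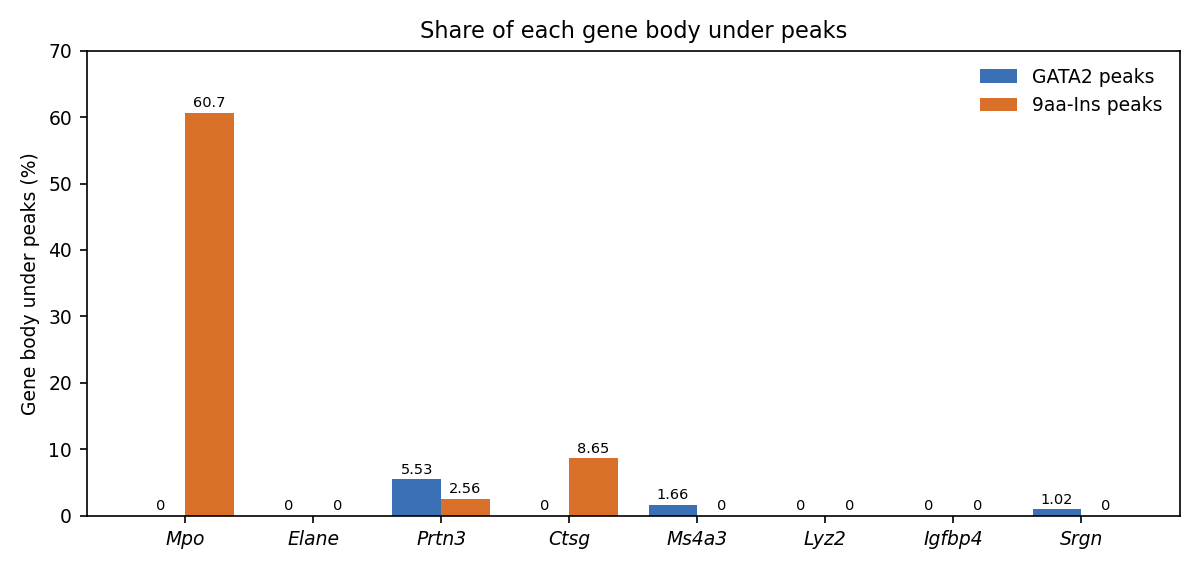
Share of each gene body (%) that lies under GATA2 peaks (blue) and 9aa-Ins peaks (orange). Mpo stands at 60.7% with 9aa-Ins and 0% with GATA2, and no other bar exceeds 8.65%, the 9aa-Ins value at Ctsg.

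Counted by summits within 20 kb, 6 of the 8 genes had a GATA2 peak, against 33.6% of all protein-coding genes, and 5 had a 9aa-Ins peak, against 9.11%. A peak found with GATA2 only was present at 5 genes (29.6% of all genes) and 1 found with 9aa-Ins only at 4 genes (1.21% of all genes), which were Mpo, Elane, Prtn3 and Ctsg. Elane and Prtn3 share the peak, so that 4 genes stand for 3 loci. The count falls to 2 genes, Mpo and Ctsg, at a q-value of 1e-08, and also when peaks within 1 kb of the other list are set aside. Body bases lay under GATA2 peaks in 3 of the 8 genes (18.3% of all genes) and under 9aa-Ins peaks in 3 (3.75% of all genes). These genes were not drawn at random, and nothing is read from the difference to the other genes. Counting each peak once, the 8 genes held 9 GATA2 peaks, 6 of them absent from the 9aa-Ins list (84.7% of all GATA2 peaks), and 12 9aa-Ins peaks, 9 of them absent from the GATA2 list (12.0% of all 9aa-Ins peaks). Of these 9, 7 were those at Mpo, which the choice fixed. Away from Mpo, 9aa-Ins peaks numbered 4, with 10 to 13 reads and widths of 223 to 559 bp, and GATA2 peaks numbered 8, with 10 to 22 reads and widths of 189 to 681 bp.

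**Figure D4:**
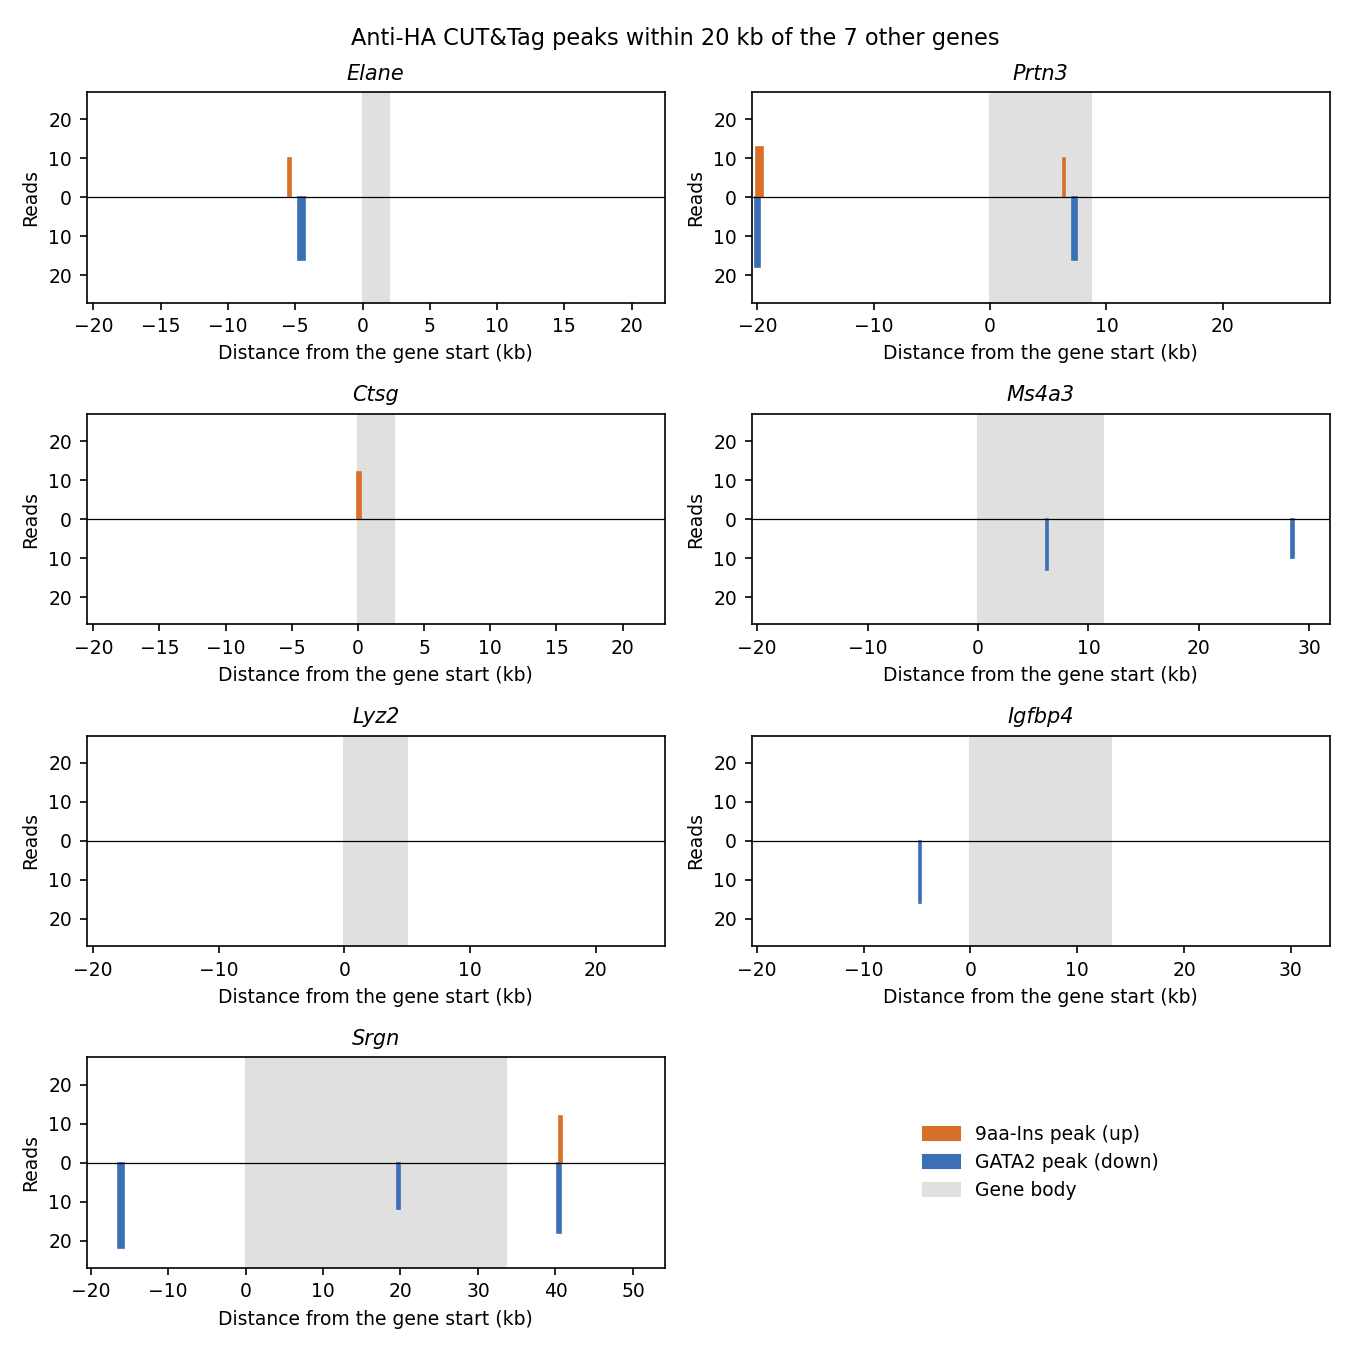
Peaks within 20 kb of the 7 other genes, by distance from the start of each gene in its direction of transcription (kb, x axis). Boxes show the width and the pileup (reads, y axis) of 9aa-Ins peaks (up) and GATA2 peaks (down), and grey marks the gene body. Elane and Prtn3 show the same pair of peaks, at Ctsg the box at the start is a 9aa-Ins peak, and at Lyz2 no box appears.

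Of the granule serine proteases, Ctsg came closest to Mpo. Its gene (ENSMUSG00000040314.2, chr14:56099881-56102574, minus strand) had a 9aa-Ins peak at its start, from 56102342 to 56102643 (302 bp), with 12 reads (interval 6.20 to 21.0) and a summit 21 bp inside the gene. The peak covered 233 bp of the body (8.65%) and was absent from the GATA2 list, whose nearest peak lay 177 kb from the gene. Neither list had another peak within 20 kb. The sequence before the start of Ctsg is shown because part of it lies under this peak. Capitals mark its RUNX core, on the opposite strand, which lies just outside the edge of the peak. A second RUNX core lies inside the peak, at 56102365 to 56102370 within the gene. No WGATAR motif was found within 100 bp of the summit.

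Ctsg, chr14:56102575-56102724, minus strand: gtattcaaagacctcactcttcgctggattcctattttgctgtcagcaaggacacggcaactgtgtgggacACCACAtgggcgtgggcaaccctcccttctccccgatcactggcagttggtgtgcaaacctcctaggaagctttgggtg

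Elane and Prtn3 shared a pair of intronic peaks in Prtn3, 1 from each list. The 9aa-Ins summit lay in the promoter window (2 kb before to 100 bp after a transcript start) of a Prtn3 transcript that starts inside the gene. The GATA2 summit lay in no promoter window. Prtn3 (ENSMUSG00000057729.12, chr10:79874476-79883174, plus strand) held a GATA2 peak at 79881478 to 79881958 (481 bp, 16 reads, interval 9.15 to 26.0) and a 9aa-Ins peak at 79880708 to 79880930 (223 bp, 10 reads, interval 4.80 to 18.4). The pair did not overlap and lay 547 bp apart, and the 9aa-Ins peak was near the lower limit of its list, so that different places for the proteins are not shown. GATA2 peaks covered 5.53% of Prtn3 and 9aa-Ins peaks 2.56%. Elane (ENSMUSG00000020125.7, chr10:79886247-79888215, plus strand) had no peak on its body, and the same pair lay 4.58 kb (GATA2) and 5.40 kb (9aa-Ins) before it. A shared pair at the promoter of Ptbp1, which encodes a splicing factor, counted for Prtn3 only because it lay 19.9 kb (GATA2, 18 reads) and 19.8 kb (9aa-Ins, 13 reads) away. For Elane, the next peaks of both lists were 20.6 kb away and fell just outside the window.

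Within 100 bp of the summit, WGATAR occurred at 5 of the 8 GATA2 peaks near Prtn3, Ms4a3, Igfbp4 and Srgn. It was found at both peaks of Ms4a3, at the peak of Igfbp4, at the intronic peak of Prtn3 and at the Kif1bp peak of Srgn. It was not found at the other peak of Prtn3 or the other 2 of Srgn. At the intronic peak of Ms4a3 the match lies just outside the called peak. One match from each locus is shown with 11 bases to each side, all read on the plus strand of GRCm38 with the motif or its reverse complement in capitals.

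Prtn3 intron, chr10:79881718-79881745: gtgacctcttgTTATCTttactctgcac
Ms4a3 downstream, chr19:11612462-11612489: agagcctttgcTTATCTtaggtcagaga
Igfbp4 upstream, chr11:99036451-99036478: ctggactctagAGATAGgctggacagga
Srgn upstream, chr10:62543377-62543404: acttcccgcaaTGATAGattaagaatgt

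Ms4a3 (ENSMUSG00000024681.11, chr19:11629496-11640851, minus strand) had GATA2 peaks but no 9aa-Ins peak within 371 kb. A GATA2 peak of 189 bp with 13 reads (interval 6.92 to 22.2) lay in an intron, at 11634522 to 11634710, and covered 1.66% of the gene. The other, at 11612273 to 11612519 with 10 reads (interval 4.80 to 18.4), lay 17.0 kb beyond the 3′ end. This low peak had 4 WGATAR matches within 100 bp of its summit, the most among the peaks of the 8 genes. Of these, 2 lie inside the peak, and the match shown above was 11 bp from the summit.

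Igfbp4 (ENSMUSG00000017493.12, chr11:99041244-99054392, plus strand) had a single GATA2 peak, 4.80 kb before its start, at 99036412 to 99036660 (249 bp, 16 reads, interval 9.15 to 26.0). The peak had 3 WGATAR matches within 100 bp of its summit, 1 of them inside the peak. The nearest 9aa-Ins peak was 1270 kb from the gene. No peak touched the body.

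Srgn (ENSMUSG00000020077.14, chr10:62493833-62527451, minus strand) had 3 GATA2 peaks, 2 of them absent from the 9aa-Ins list. The tallest, of 22 reads (interval 13.8 to 33.3), lay 16.0 kb before the annotated start, in an intron of Kif1bp, at 62543163 to 62543843. A peak of 12 reads at 62507562 to 62507904 lay within the gene, at the start of a shorter transcript, and covered 197 of the 300 bases of its RefSeq promoter window. The shared site was 6.95 kb beyond the 3′ end, near the start of Vps26a, with 18 GATA2 reads and 12 9aa-Ins reads, and the summits were 62 bp apart. The counting intervals were 10.7 to 28.4 and 6.20 to 21.0.

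Lyz2 (ENSMUSG00000069516.8, chr10:117277331-117282321, minus strand), a macrophage and neutrophil gene, had no peak within 20 kb in either list. Its nearest GATA2 peak was 52.9 kb away and its nearest 9aa-Ins peak 5980 kb away.

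The presence of WGATAR, searched on either strand as AGATAA with T allowed as its first letter and G as its last, within 100 bp of the summit was compared between the lists as a description. Of the 9 GATA2 peaks near the 8 genes 5 had the motif, beside 30.3% of all GATA2 peaks, and of the 12 9aa-Ins peaks 2 had it, beside 12.1% of all 9aa-Ins peaks. Both of the latter lay near Mpo, at the 260 bp peak over Tspoap1 and at the 623 bp peak, with the motif 83 and 88 bp from the summit. The motif of the 260 bp peak lies outside the called peak. At the tallest 9aa-Ins summits of Mpo, over the promoter and beyond the 3′ end, no match lay within 100 bp. Their 30 bases on the plus strand are given because they mark where the pileup of each peak was highest.

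Mpo promoter summit, chr11:87793821-87793850: ttcaaaggatttgggacactcagtttaacc
Mpo 3′ summit, chr11:87805249-87805278: gtattgaacctagggccttgtatatgctag

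Over whole peaks, which are wide at Mpo, 6 of the 8 9aa-Ins peaks near Mpo held WGATAR, beside 21.4% of all 9aa-Ins peaks, and the widest held 8 matches. The body of Mpo contained 12 matches (1.11 per kb), of which 6 lay inside 9aa-Ins peaks. Motif density did not set Mpo apart, as Ms4a3 had 34 matches (2.99 per kb) and Srgn 59 (1.75 per kb), and none of these lay inside a peak of either list.

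Cores of other factors were counted in the same windows. The ETS core (GGAAGT) was present at 1 of 9 GATA2 peaks and 1 of 12 9aa-Ins peaks, beside 19.7% and 15.5% of all peaks in the lists. The RUNX core (TGTGGT) was present at 2 of 9 and 2 of 12, as often as WGATAR at the latter, beside 16.2% of all GATA2 peaks and 108 of the 1079 9aa-Ins peaks. The C/EBP core (TTGCNNAA) was present at none of either, beside 5.76% and 4.82%. In the RefSeq promoter windows of the 8 genes, of which Srgn has 2, no WGATAR match was found, against 29.8% of all 32851 windows. The ETS core occurred for each gene except Igfbp4, at Srgn in 1 of its 2 windows, against 23.8% of all windows. The RUNX core occurred for Srgn (1 of its 2 windows), Lyz2 and Ctsg (16.8% of all windows), and the C/EBP core for Ms4a3 alone (10.8%). The WGATAR match printed before the start of Mpo lies across the edge of its window and was therefore not counted there. Summit windows of the 12 9aa-Ins peaks were 46.3% to 67.2% GC, and the mean over the whole list was 62.2%. Repeats took up to 71.1% of a window, at the 368 bp peak of Mpo, against a mean of 7.04%, and their part in the peaks was not tested.

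Genes were next ranked by how many more body bases lay under 9aa-Ins than under GATA2 peaks. Mpo was first of 21938, with an excess of 6575 bp. Lpo, lactoperoxidase, was second with 2023 bp, from the far end of the same 5548 bp peak. The next 9, from 560 to 405 bp, were the histone genes Hist1h2bc, Hist1h3d, Hist1h4j, Hist1h1d and Hist1h2ae, the chaperone gene Hspa8, the elongation factor gene Eef1a1, Tex14 and Pcif1, an RNA cap methyltransferase gene. Among these 9, Pcif1 alone had no GATA2 peak on its body, with 1 9aa-Ins peak on 2.67% of its length. Over all genes, 188 (0.857%) were covered more by 9aa-Ins and 3848 (17.5%) more by GATA2 peaks, and among the 8 genes these numbers were 2 and 3. Of the genes at least 5 kb long, Mpo alone had 50% or more of its body under 9aa-Ins peaks.

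**Figure D5:**
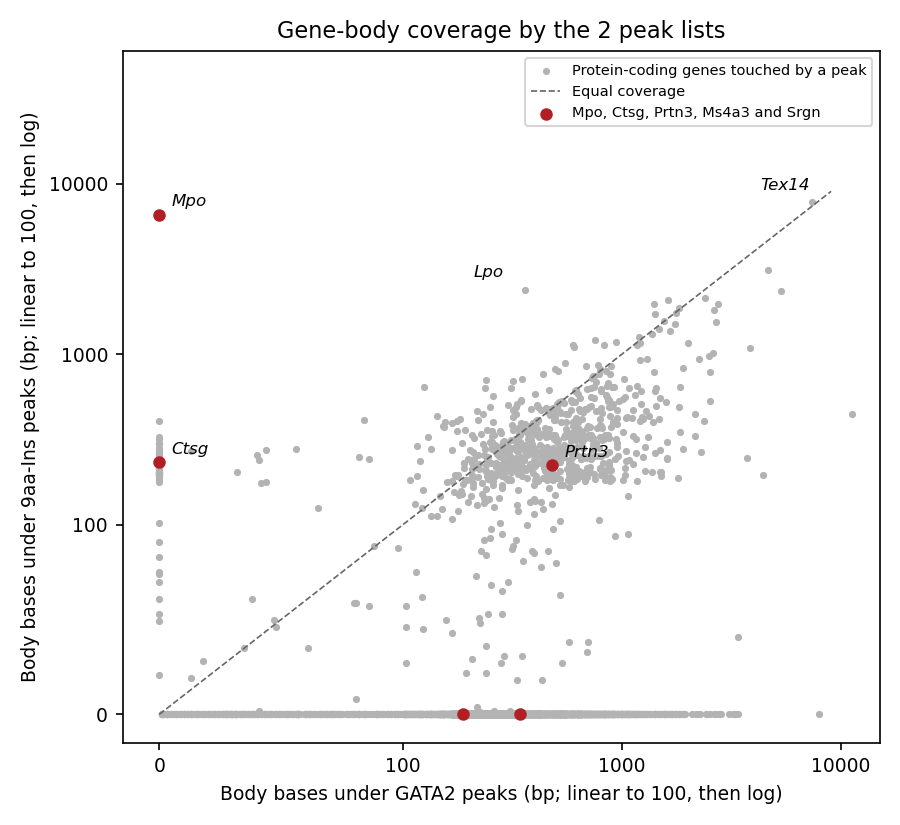
Body bases under GATA2 peaks (x axis) and under 9aa-Ins peaks (y axis) for each protein-coding gene touched by a peak, on axes that are linear up to 100 bp and logarithmic above. Mpo, at 0 and 6575 bp, is far from the line of equal coverage, whereas Ctsg lies with other genes that have 1 narrow 9aa-Ins peak and Prtn3 lies below the line.

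Further granule genes were taken from lists set by function. Of 6 other primary granule genes (Bpi, Cd63, Ctsc, Fcnb, Prss57 and Serpinb1a), 4 had a GATA2 peak within 20 kb (33.6% of all genes), 1 had a 9aa-Ins peak (9.11% of all genes), and none had the pattern (0.378% of all genes) or a peak found with 9aa-Ins only (1.21% of all genes). Ctsc, which encodes the cathepsin that activates granule proteases, had a GATA2 peak of 14 reads at its start. Prss57, a serine protease gene near Elane, had a shared site 1.10 kb beyond its 3′ end with 34 GATA2 reads (interval 23.5 to 47.5) and 16 9aa-Ins reads (interval 9.15 to 26.0). Cd63 and Serpinb1a had GATA2 peaks of 11 and 14 reads outside the genes, and Bpi and Fcnb had none.

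Of 9 genes of secondary and tertiary granules (Camp, Chil3, Cybb, Itgam, Lcn2, Ltf, Mmp8, Mmp9 and Ngp), which are used later in neutrophil maturation, 7 had no peak in either list and 2 had a GATA2 peak (33.6% of all genes). Lcn2, lipocalin 2, had a shared site at the promoter of its neighbour Ptges2 (21 GATA2 reads and 12 9aa-Ins reads), and Itgam, an integrin gene, had a GATA2 peak of 11 reads 11.7 kb upstream. None of these 15 granule genes had the pattern, which at 0.378% of all genes would be rare in any list of this size, so nothing about granule genes is read from the count.

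Genes of other cells are given as the same kind of description, beside the 33.6% of all genes with a GATA2 peak and the 9.11% with a 9aa-Ins peak, and nothing is read from lists this short. The 3 eosinophil genes (Epx, Prg2 and Prg3) and the 3 cytotoxic lymphocyte genes (Gzma, Gzmb and Prf1) had no peak within 20 kb. Among 4 mast cell and basophil genes, Cpa3, a mast cell carboxypeptidase gene, had 4 GATA2 peaks of 10 to 46 reads and no 9aa-Ins peak, Cma1 had 1 GATA2 peak, Tpsb2 had none, and Mcpt8 was counted only through the Ctsg peak 17.3 kb away. Of 4 T cell genes, Cd3e, Cd3g and Lck had GATA2 peaks (the same peak for Cd3e and Cd3g), none had a 9aa-Ins peak, and Cd8a had neither. Of the 3 neighbours of the 8 genes, Lpo had the pattern through the peaks of Mpo, Cfd shared the Prtn3 pair and Lyz1 had no peak.

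Of 6 regulators of granulocyte genes (Cebpa, Cebpe, Gfi1, Myb, Runx1 and Spi1), 6 had a GATA2 peak within 20 kb (33.6% of all genes), 3 had a 9aa-Ins peak (9.11% of all genes) and none had the pattern (0.378% of all genes). More GATA2 than 9aa-Ins peaks is the rule over the whole lists and is not particular to these genes. Cebpe, which encodes a C/EBP protein of late granulocytes, had a shared site 4.38 kb beyond its 3′ end with 47 GATA2 reads (interval 34.5 to 62.5) and 10 9aa-Ins reads (interval 4.80 to 18.4). The intervals hold no spread between replicates, and the difference was not tested. Runx1 had 6 GATA2 peaks, Gfi1 and Spi1 (PU.1) had 3 each, and none of these genes had a 9aa-Ins peak. Myb had 5 GATA2 and 4 9aa-Ins peaks, of which 2 intronic ones of 11 reads each were found with 9aa-Ins only. At Cebpa, 13 GATA2 reads and 11 9aa-Ins reads stood over peaks that overlapped at the gene start.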

How the data were processed

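The authors used Bowtie2 to align the anti-HA CUT&Tag reads to mm10, took out duplicates and blacklisted regions, and called peaks with MACS3 at a q-value of 1e-06. Versions were not given in the sources used here. Both replicates of a construct are merged in the 2 deposited lists, although the study's methods describe merging of peaks called in each replicate. The fold enrichment (a ratio), the −log10 p-value, the −log10 q-value and the score of each peak are the authors' values, and peak positions were used as deposited. Fold enrichment was the pileup plus 1 over a single background plus 1, which gave whole pileups for 100% of peaks (tolerance 0.01 reads). The files held 0 columns of other samples.

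In place of read totals, which were not used here, depth is given by the background and the lowest pileup. Genes and transcripts were from GENCODE M21 on GRCm38, and chrM was left out. A promoter reached from 2 kb before to 100 bp after a transcript start. Promoter sequences were from RefSeq, with all 8 genes matched. Summits, overlaps and covered bases were computed with Python 3.11.15, pandas 2.3.3, numpy 2.4.6, scipy 1.17.1 and pysam 0.24.0, and interval handling was tested on simulated data. No test between the lists was possible. The 8 genes and all lists were chosen with earlier results of these data known. Named were the 8 genes, listed genes with a peak, the 10 genes of largest 9aa-Ins excess after Mpo and genes at the summits of counted peaks. Features named beyond this rule, such as the neighbours of Mpo, were chosen after their values were seen.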

Additional observations from a re-analysis of the deposited data

How the results depend on the processing

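No paired analysis was possible because the replicates of a construct are merged in 1 list, and for the same reason no replicate could be left out. Of 82 values under the alternatives, 65 kept within the limits set for a change and 17 moved. Mpo and Ctsg had the pattern, and no other of the 8 genes did, with windows of 10 or 50 kb, at q-values of 1e-08 and 1e-10 and with 2 kb added to the bodies. With the window at 50 kb, distinct GATA2 peaks numbered 22 (9 at Mpo) and distinct 9aa-Ins peaks 19 (14 at Mpo), where the added peaks at Mpo include those of the Mir142hg cluster and the rest lie at other genes. With GATA2 peaks cut to the 1079 of lowest q-value, 1 gene kept a GATA2 peak, distinct GATA2 peaks numbered 1, Mpo had 0 and 0 other bodies were touched, because most of these GATA2 peaks are low. 9aa-Ins peaks still touched 2 other bodies under this cut, those of Ctsg and Prtn3. The pattern was not recounted there, and Prtn3 would then meet its definition. Joining peaks under 1 kb apart left 4 9aa-Ins peaks at Mpo and raised coverage to 73.9%, as the gaps were then counted, and the body with 2 kb added was covered to 59.7%. At q-values of 1e-08 and 1e-10, 9aa-Ins peaks touched 1 body besides Mpo, that of Ctsg, because the Prtn3 peak was lost. Among genes with body lengths within the range of the 8, 0.292% had the pattern. With 50 bp to each side of the summit, WGATAR was found at 0 9aa-Ins peaks and 3 GATA2 peaks, and over whole peaks at 6 9aa-Ins peaks and 4 GATA2 peaks. Counts of low peaks are limited by depth, since 10 to 13 reads lie close to the lowest called pileup of 9 reads.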
